A study of Mus musculus with 5 samples.

Results

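PIM kinases and BCL2 family genes were followed as 10 named genes, chosen for their part in the survival of cytokine-dependent natural killer (NK) cells: the kinase genes Pim1, Pim2 and Pim3, the survival genes Bcl2, Bcl2l1, Mcl1 and Bcl2a1b, and the death genes Bcl2l11, Bad and Bak1. All 10 were found among the 56691 genes of the deposited count table, each under 1 Ensembl identifier, and all 10 were among the 30580 genes with enough counts to be tested. The table holds 5 libraries from NK cells of mouse spleen: 3 labelled Fli1 KO (CRISPR knockout of Fli1, an ETS family transcription factor gene) and 2 labelled NTC, the group it was set against; the labels do not spell NTC out. They give no strain, age, sex, culture condition, guide position or time after editing, and do not say whether each library is from its own animal. The p-values therefore speak for the spread among these 5 samples, which may be technical.

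NK cells live on signals from IL-15 and IL-2, which act through the kinases JAK1 and JAK3 and the transcription factor STAT5. PIM kinases are serine/threonine kinases with no regulatory domain that needs switching on, so that their activity follows how much RNA and protein a cell makes, and cytokine receptors raise their transcription. They phosphorylate BAD, CDK inhibitors and regulators of translation. BCL2, BCL-XL (from Bcl2l1), MCL1 and A1 (from the Bcl2a1 genes) hold the mitochondrial outer membrane closed. BH3-only proteins such as BIM (from Bcl2l11) and BAD bind and block these, and BAK and BAX form the pore that commits a cell to death. In NK cells MCL1 is known as the survival protein that IL-15 maintains and that cells cannot do without.

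Libraries held 4718390 to 5643791 counts. Fli1 itself had 390, 320 and 361 CPM (a gene's counts relative to its library's TMM-scaled total) in Fli1 KO 1 to 3, and 322 and 279 CPM in NTC 1 and NTC 2 (edgeR adjusted p = 0.641). The groups overlapped, and gene-level RNA does not show whether the protein was lost, so every direction below rests on the labels as given. NK markers (13 of 13 over 3 times background, the count density on olfactory and vomeronasal receptor genes) summed to 9400 to 13700 CPM in Fli1 KO and 6960 to 10000 CPM in NTC. Most of that sum was Gzma, Gzmb, Prf1 and Il2rb, and 0 of the 13 were called. Ncr1, Klrk1 and Tbx21 were lower in every Fli1 KO library than in both NTC libraries. Prf1 and Il2rb were higher, and the other markers overlapped. The T cell list of 10 genes summed to 85.0 to 95.2 and 81.3 to 87.2 CPM, with 1 gene over 3 times background, and the 8 B cell genes to 42.6 to 50.3 and 48.0 to 51.0 CPM, with 0 over it. The 8 neutrophil, 8 erythroid and 8 stromal and endothelial genes summed to 13.7 to 21, 11.9 to 17.3 and 228 to 258 CPM in Fli1 KO and to 17.5 to 21.5, 17.5 to 17.5 and 234 to 257 CPM in NTC. Most of the stromal and endothelial sum was Pecam1, at 145 to 176 CPM. The 10 macrophage and monocyte genes summed to 964 to 1080 and 1040 to 1220 CPM, nearly all of it Ccr2, which was at 921 CPM or more in every library. No marker gene of these lists was at 0 in all libraries. NTC 2 stood apart: the 6 genes of the ILC1 list, innate lymphoid cells close to NK cells, summed to 504 CPM there and to 292 to 309 CPM in the other 4 libraries, and Il7r, a cytokine receptor gene of such cells, stood at 117 CPM there and at 20.1 to 25.3 CPM elsewhere. The chi-square per degree of freedom between NTC 1 and NTC 2 was 35.2, against 3.91 to 7.49 between Fli1 KO libraries. In bulk RNA fewer cells of a type and less RNA per cell cannot be told apart.

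Of the 10 genes, Pim3 rose in Fli1 KO, and it was the only one to pass the test. edgeR called 1 gene higher and 0 lower at an adjusted p under 0.05, as did DESeq2 and limma-voom, and 3 had an unadjusted p under 0.05 (Pim3, Mcl1 and Pim1). Among all tested genes 0.546% were called, 0.458% higher and 0.0883% lower, and 8.94% had an unadjusted p under 0.05. Among the 7605 genes over 3 times background, as 9 of the 10 were, 2% were called and 1389 had an unadjusted p under 0.05. In 4 of the 10 genes the groups did not overlap (Pim1, Pim3 and Mcl1 higher, Bcl2a1b lower). That was so for 25.6% of all tested genes and for 2593 of the 7605 over 3 times background. The median log2 fold change of the 10 genes was 0.17, that of all tested genes −0.02 and that of genes over 3 times background 0.11. Without NTC 1 edgeR called 5 of the 10 higher (Pim1, Pim2, Pim3, Bcl2 and Bak1), and the median was 0.54. Without NTC 2 it called Pim3 alone, and the median was 0.02. Both fits leave 1 NTC library, which is then assumed to vary as the Fli1 KO group does.

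**Figure D1:**
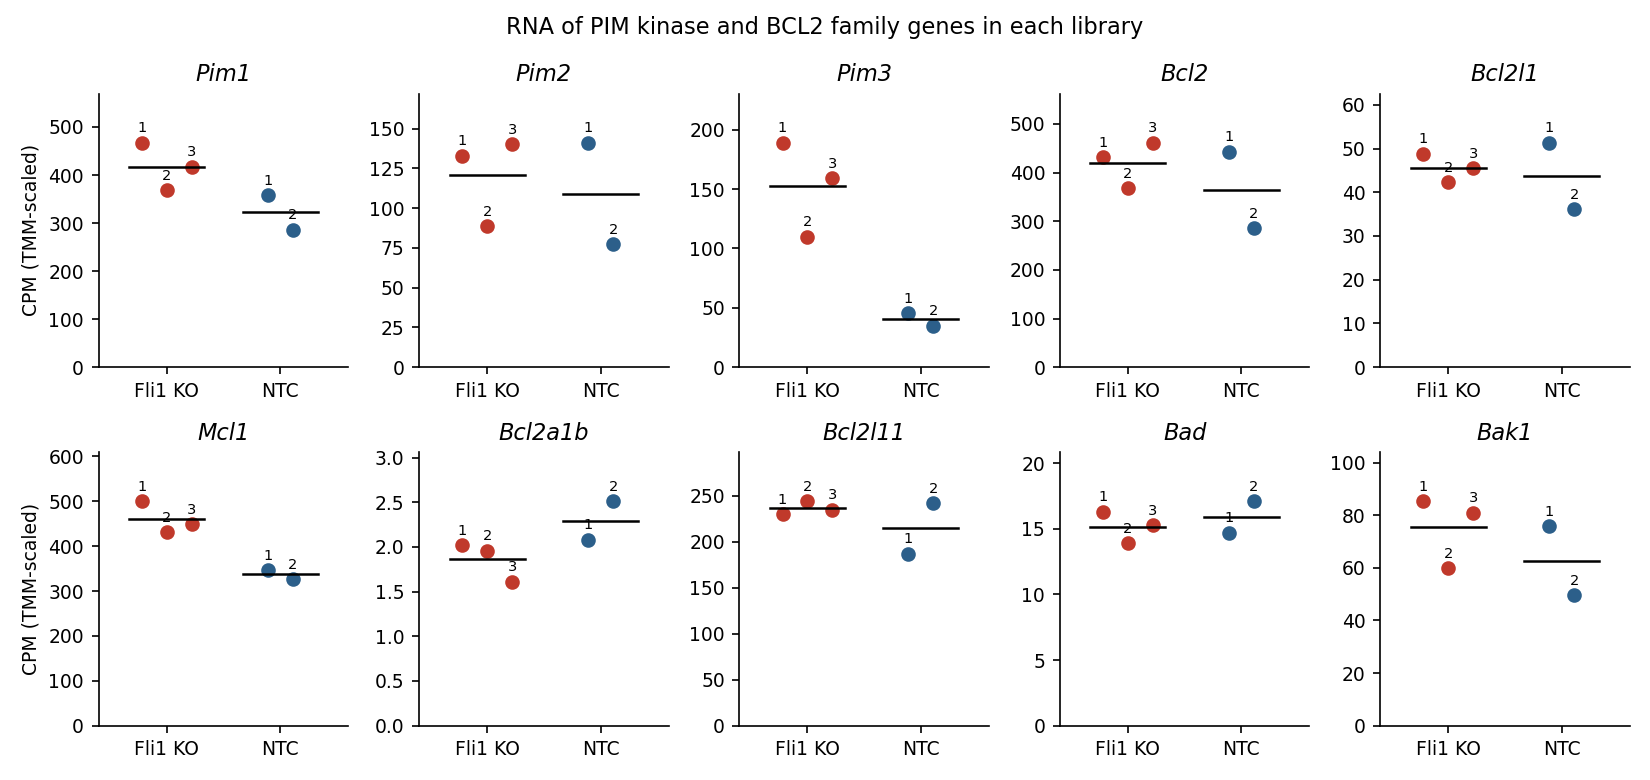
CPM (TMM-scaled, vertical axis from 0) of the 10 genes in each library, 1 panel per gene. Points are libraries with their replicate number, red for Fli1 KO (n = 3) and blue for NTC (n = 2), and the black line is the group mean. Pim3 stands at 110 to 189 CPM in Fli1 KO and at 35.1 and 45.4 CPM in NTC, while most other genes overlap between groups.

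The upstream sequences of the 3 PIM genes are given first, because only 1 of these genes passed the test. They are the 250 bases before the start of transcription in RefSeq on GRCm38.p6, 5′ to 3′ on the strand of the gene. All 3 genes lie on the plus strand, and for Pim1 the first of its 2 listed starts is shown. Capitals mark ATTGG, which is the CCAAT box read on the other strand.
Pim3 (chr15:88861944-88862193): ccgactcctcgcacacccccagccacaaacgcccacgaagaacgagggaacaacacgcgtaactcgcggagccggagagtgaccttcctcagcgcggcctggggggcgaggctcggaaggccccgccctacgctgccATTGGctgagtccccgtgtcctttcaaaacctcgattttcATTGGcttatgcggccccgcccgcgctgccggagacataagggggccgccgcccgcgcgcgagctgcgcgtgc
Pim1 (chr17:29490535-29490784): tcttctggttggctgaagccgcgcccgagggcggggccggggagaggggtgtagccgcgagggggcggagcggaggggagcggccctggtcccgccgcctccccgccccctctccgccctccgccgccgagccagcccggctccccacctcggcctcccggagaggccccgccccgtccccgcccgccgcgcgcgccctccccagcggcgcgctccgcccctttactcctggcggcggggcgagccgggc
Pim2 (chrX:7878056-7878305): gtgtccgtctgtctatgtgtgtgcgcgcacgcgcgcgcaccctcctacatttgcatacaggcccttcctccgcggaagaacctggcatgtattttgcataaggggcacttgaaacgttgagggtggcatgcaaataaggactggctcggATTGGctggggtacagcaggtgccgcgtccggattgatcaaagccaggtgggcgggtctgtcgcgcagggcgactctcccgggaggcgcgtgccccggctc
The Pim3 window held ATTGG at 2 places, starting 113 and 73 bases before the start, the Pim2 window at 1 place, 101 bases before it, and the Pim1 window at 0. CCAAT on either strand was present in 33.8% of 32851 RefSeq promoter windows of this length. GC boxes (GGGCGG on either strand, present in 32.7% of windows) numbered 3 for Pim3, 7 for Pim1 and 1 for Pim2, and the GC content was 68%, 82.4% and 62%, where the median of all windows was 52.4%. These 2 motifs were added after the sequences had been read.

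A second set of motifs was searched on both strands in the windows of all 10 genes (15 windows, since some genes have several starts). The palindromic STAT motif TTCNNNGAA, present in 7.02% of all windows, its form with a longer spacer (5.85%), the ETS motifs CCGGAAGT (2.88%) and CAGGAAGT (2.69%), and the AP-1 motif TGAGTCA, which is TGACTCA on the other strand (4.46%), were found in 0 of the 15. An EGR motif lay in 1 window of Bcl2l11 (GCGGGGGCG, 2.57% of all windows) and in that of Bcl2a1b (GCGTGGGCG, 0.536%), and the E-box CACGTG (6.02%) lay before the second start of Pim1. The Pim3 window held none of this set. A missing match says only that these letters are not in this window.

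Among the PIM kinases, Pim3 (ENSMUSG00000035828, GRCm38 chr15:88862186-88865726, plus strand) encodes the family member known for its high sequence likeness to PIM1 and for links to energy metabolism. It stood at 189, 110 and 159 CPM in Fli1 KO 1 to 3 and at 45.4 and 35.1 CPM in NTC 1 and NTC 2. All 3 Fli1 KO libraries lay above both NTC libraries, and the lowest of them, Fli1 KO 2, was still more than any NTC value. Fli1 KO averaged 152 ± 39.7 CPM (SD, n = 3) against 40.3 ± 7.3 CPM in NTC (SD, n = 2), a 3.77-fold rise with a 95% interval of 2.77 to 5.14 (log2 fold change 1.92, SE 0.21, edgeR adjusted p = 0.000207). Pim3 ranked 13 by log2 fold change among the 140 genes called higher. No exon of another gene overlaps its exons in GENCODE release M21, and 0 of its 2423 stretches of 50 bases occur in a transcript of another gene. Pim3 kept its call and its direction under all 14 other settings, with log2 fold changes of 1.74 to 2.14.

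Pim1 (ENSMUSG00000024014, GRCm38 chr17:29490753-29496112), the founding member of the family and a STAT5 target in lymphocytes, was the PIM gene with the highest level. It stood at 467, 369 and 417 CPM in Fli1 KO and at 358 and 286 CPM in NTC. The groups did not overlap, but the gap between Fli1 KO 2 and NTC 1 was small beside the spread within either group. The log2 fold change was 0.38 (SE 0.15, 95% interval 0.07 to 0.68, edgeR adjusted p = 0.422), so the change was not called, and its interval reaches no higher than 1.61-fold. It was 0.23 without NTC 2 and 0.57 without NTC 1. An antisense gene, Gm26885, overlaps 14.5% of the exon length of Pim1 and was at 8.46 to 12.1 CPM, near background. Whether counting used the strand is not given.

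Pim2 (ENSMUSG00000031155, GRCm38 chrX:7878262-7883432), a PIM kinase known in lymphocyte survival and translation, followed the library and not the group. It stood at 133, 88.5 and 140 CPM in Fli1 KO and at 141 and 77.3 CPM in NTC, with the lowest values in Fli1 KO 2 and NTC 2. The difference was within the spread of the libraries (log2 fold change 0.14, SE 0.30, 95% interval −0.58 to 0.86, edgeR adjusted p = 0.943). The value was 0.66 without NTC 1 (adjusted p = 0.0164) and −0.22 without NTC 2 (adjusted p = 0.851). Scaling by library size only gave 0.00.

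Per kb of exon, a scale on which levels of different genes can be set side by side, Pim1 led in every library. Pim3 was at 77.8, 45.3 and 65.3 CPM per kb in Fli1 KO and at 18.7 and 14.5 CPM per kb in NTC, and Pim2 at 47.5, 31.7 and 50 and at 50.3 and 27.7. Pim3 therefore lay above Pim2 in each Fli1 KO library and below it in each NTC library, with log2 ratios of 0.71, 0.52 and 0.39 against −1.43 and −0.94. The log2 ratio of Pim1 to Pim2 was 1.55, 1.79 and 1.31 in Fli1 KO and 1.08 and 1.62 in NTC, and overlapped. Pim3 made up 29.4%, 24.3% and 27.3% of PIM RNA per kb in Fli1 KO and 10.7% and 11.4% in NTC. The PIM sum was 264, 187 and 239 CPM per kb in Fli1 KO and 176 and 127 in NTC. These ratios were not tested. In libraries made by probe capture the level of a gene also depends on its probes, which limits any comparison between genes but not that of 1 gene between libraries.

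**Figure D2:**
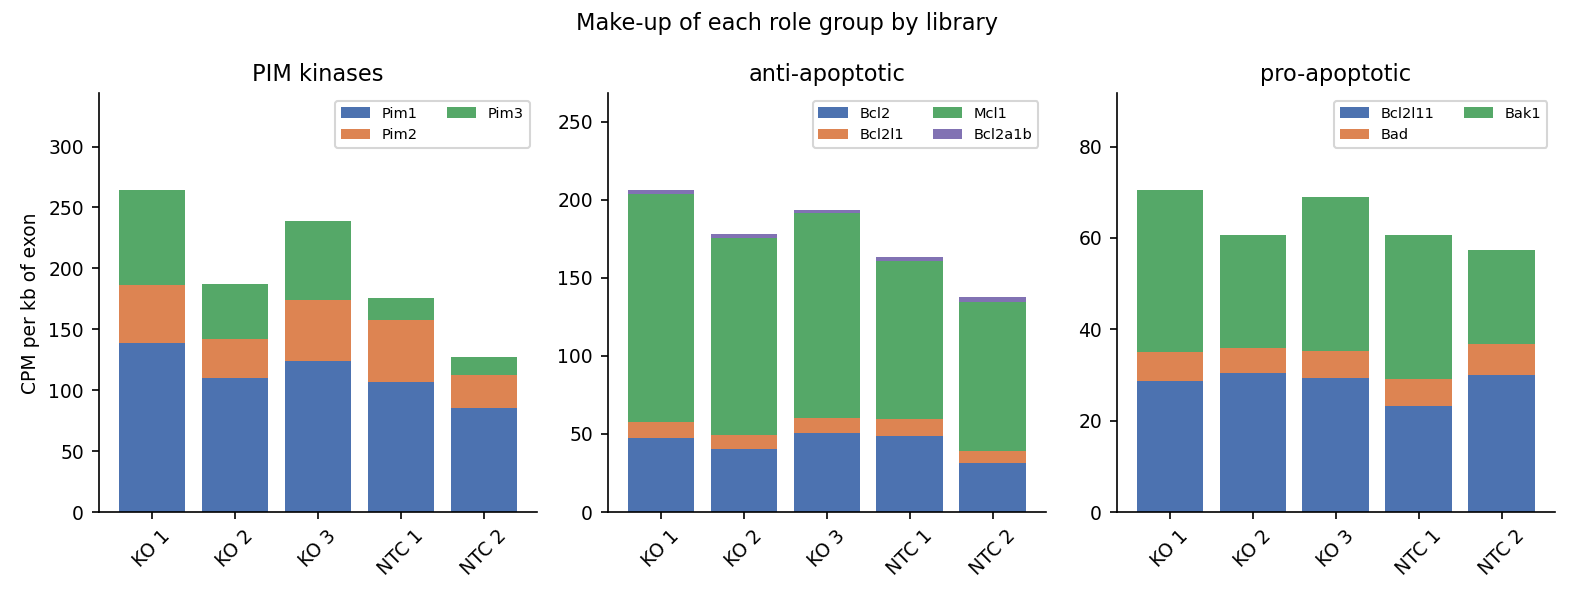
CPM per kb of exon (vertical axis from 0) summed over the PIM kinase genes, the 4 survival genes and the 3 death genes, stacked by gene for each of the 5 libraries, with KO for Fli1 KO. Pim3 takes 24.3% to 29.4% of the PIM bar in Fli1 KO and 10.7% to 11.4% in NTC, while the death genes sum to 60.7 to 70.5 and 57.4 to 60.6 CPM per kb.

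Among the survival genes Mcl1 (ENSMUSG00000038612, GRCm38 chr3:95658788-95663176) came closest to a call. It stood at 500, 431 and 449 CPM in Fli1 KO and at 347 and 327 CPM in NTC, and the groups did not overlap. Fli1 KO averaged 460 ± 35.6 CPM (SD, n = 3) and NTC averaged 337 ± 14 CPM (SD, n = 2). The log2 fold change was 0.45 (SE 0.14, 95% interval 0.16 to 0.74, unadjusted p = 0.00375, edgeR adjusted p = 0.231). It lay between 0.32 and 0.52 under the 14 other settings. In simulated libraries of this number and depth the test found 19.4% of changes of 1.5-fold, 74.6% at 2-fold and 100% at 4-fold, so a change as small as that of Mcl1 would seldom be called.

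Bcl2 (ENSMUSG00000057329, GRCm38 chr1:106538178-106714274), the founding survival gene of the family, stood at 431, 368 and 461 CPM in Fli1 KO and at 443 and 285 CPM in NTC. NTC 1 lay within the range of the Fli1 KO libraries and NTC 2 below it. The log2 fold change was 0.21 (SE 0.17, 95% interval −0.14 to 0.55, edgeR adjusted p = 0.778), 0.58 without NTC 1 (adjusted p = 0.0427) and −0.07 without NTC 2 (adjusted p = 0.959). Its call thus turns on which NTC library is used. Bcl2l1 (ENSMUSG00000007659, GRCm38 chr2:152780668-152831728), which encodes BCL-XL, was at 48.8, 42.3 and 45.5 CPM and at 51.3 and 36.1 CPM. Both NTC libraries lay outside the narrow Fli1 KO range, 1 on either side (log2 fold change 0.05, SE 0.16, 95% interval −0.27 to 0.38, adjusted p = 0.960).

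Bcl2a1b (ENSMUSG00000089929, GRCm38 chr9:89199209-89207827), 1 of the mouse copies of the A1 survival gene, had 8 to 12 counts per library. Its 2.02, 1.96 and 1.61 CPM in Fli1 KO and 2.08 and 2.51 CPM in NTC were 1.59 times background on average, which makes it the only one of the 10 genes under 3 times background. Of its stretches of 50 bases 79.2% occur in other genes, mostly the copies Bcl2a1d and Bcl2a1a and the overlapping gene model Gm29094, which had 0 counts in every library. How reads with several positions were counted is not given, so its level is uncertain. The difference was not detectable at this depth (log2 fold change −0.28, SE 0.43, 95% interval −1.18 to 0.61, adjusted p = 0.908). Of the other A1 copies, Bcl2a1d was at 2.25 to 6.68 CPM, 3.27 times background, and Bcl2a1a and Bcl2a1c were below the filter.

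None of the 3 death genes was called, and each overlapped between groups. Bcl2l11 (ENSMUSG00000027381, GRCm38 chr2:128126038-128162547), the BH3-only gene of cytokine withdrawal, was at 230, 244 and 235 CPM in Fli1 KO and at 187 and 242 CPM in NTC. The Fli1 KO libraries lay close together and NTC 1 alone was lower (log2 fold change 0.14, SE 0.14, 95% interval −0.15 to 0.43, adjusted p = 0.832). Bad (ENSMUSG00000024959, GRCm38 chr19:6941861-6951899), the BH3-only substrate of PIM kinases, was at 16.3, 13.9 and 15.3 CPM and at 14.7 and 17.1 CPM (log2 fold change −0.07, SE 0.18, 95% interval −0.45 to 0.31, adjusted p = 0.957). Bak1 (ENSMUSG00000057789, GRCm38 chr17:27019810-27029009), the pore former, was at 85.3, 59.9 and 81.0 CPM and at 75.9 and 49.5 CPM, lowest in Fli1 KO 2 and NTC 2 (log2 fold change 0.26, SE 0.18, 95% interval −0.12 to 0.64, adjusted p = 0.731). Leaving out NTC 1 gave 0.62 (adjusted p = 0.0325) and leaving out NTC 2 gave 0.00. Exons of Gpr137 and Ggnbp1 on the opposite strand cover 20.5% of the exon length of Bad and up to 18.2% of that of Bak1. Gpr137 was at 12.9 to 16.2 CPM, as high as Bad itself, so without strand information part of the Bad count may belong to it.

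The balance of survival to death RNA, as a log2 ratio of the 4 survival genes to the 3 death genes per kb, was 1.55, 1.55 and 1.49 in Fli1 KO and 1.43 and 1.26 in NTC. The groups did not overlap, as was so for 25.6% of tested genes and 2593 of the 7605 over 3 times background. Fli1 KO 3 (1.49) lay close to NTC 1 (1.43). The group means differed by 0.18, without a test. As a sum over genes the ratio carries the limit that probe capture sets. Mcl1 supplied 62.0% to 70.9% of the survival sum in every library. The log2 ratio of Mcl1 to Bcl2l11 was 2.35, 2.05 and 2.17 in Fli1 KO and 2.12 and 1.67 in NTC, that of Bcl2 to Bcl2l11 was 0.72, 0.40 and 0.78 and 1.05 and 0.05, and that of Bcl2l1 to Bak1 was −1.74, −1.43 and −1.76 and −1.50 and −1.38. In each of these 3 pairs the groups overlapped.

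**Figure D3:**
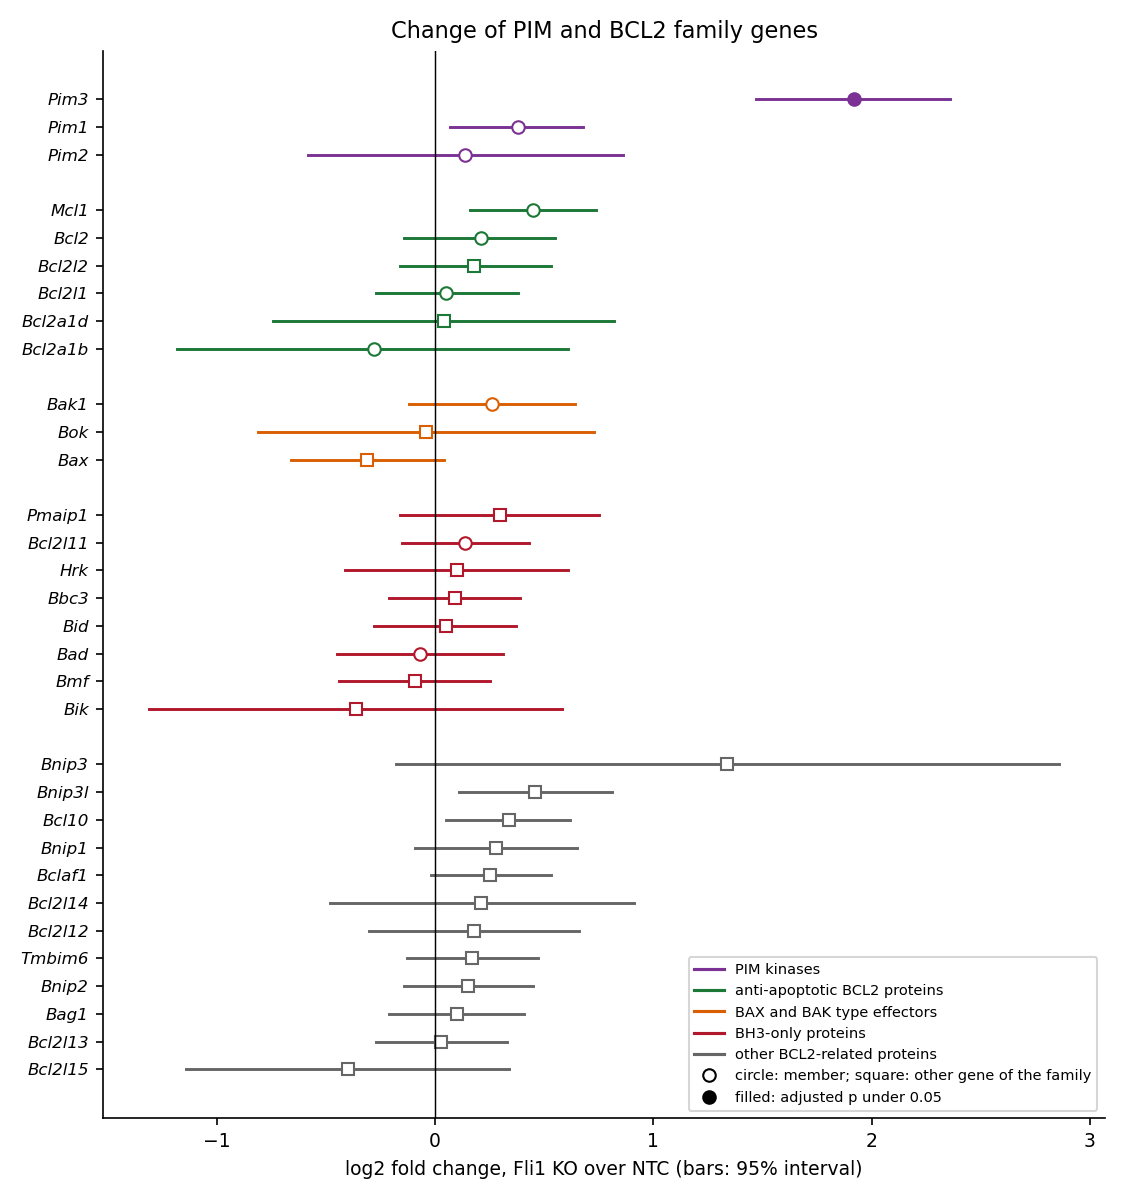
Log2 fold change of Fli1 KO over NTC (horizontal axis, points) with its 95% interval (bars) for the 3 PIM genes and the 29 tested BCL2 family and related genes, grouped by role. Only Pim3, at 1.92, is filled, which marks an adjusted p under 0.05.

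The wider BCL2 family gave 0 calls. Of 32 genes in the 4 BCL2 lists 29 were tested, and edgeR, DESeq2 and limma-voom each called 0. By edgeR 0.546% of all tested genes were called and 2% of those over 3 times background, so 0 of 29 is near these shares. With edgeR 3 of the 29 had an unadjusted p under 0.05 (Mcl1, Bnip3l and Bcl10). That was so for 8.94% of all tested genes and 1389 of the 7605 over 3 times background. The median log2 fold change of the 29 was 0.14, and that of genes over 3 times background 0.11. Among BH3-only genes, Pmaip1, which encodes NOXA, the partner that targets MCL1 for degradation, had the smallest p (10.3 to 11.7 CPM in Fli1 KO, 7.46 and 10.4 CPM in NTC, log2 fold change 0.30, adjusted p = 0.751). Pmaip1 was only 2.36 times background on average, so part of its count may be background. Bax, the second pore former, had the smallest p of the effectors, at 31.5, 21.9 and 25.2 CPM in Fli1 KO and 33.6 and 31.1 CPM in NTC (log2 fold change −0.31, adjusted p = 0.611). Bnip3l, a mitochondrial receptor for autophagy, had that of the 12 other related genes (log2 fold change 0.46, SE 0.17, adjusted p = 0.361). Without NTC 1 it was 0.78 and called (adjusted p = 0.00155).

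In the lists of caspases, their inhibitors, the death receptor pathway and MCL1 turnover edgeR, DESeq2 and limma-voom each called 0 as well. Calls by edgeR made up 0.546% of all tested genes and 2% of those over 3 times background. In lists of this size 0 calls is near these shares. Of 14 caspase and apoptosome genes 1 had an unadjusted p under 0.05 (Apaf1, the apoptosome scaffold, log2 fold change 0.30, adjusted p = 0.533), of 6 caspase inhibitor genes 1 (Birc2, an inhibitor of apoptosis protein, 0.33, adjusted p = 0.495), of 10 death receptor genes 4, and of 7 genes of MCL1 turnover 2. An unadjusted p under 0.05 was found for 8.94% of all tested genes and for 1389 of the 7605 over 3 times background. Traf2, the adaptor below TNF receptors, was at 42.6, 39.4 and 38.7 CPM in Fli1 KO and at 56.9 and 52.9 CPM in NTC. Its groups did not overlap (log2 fold change −0.45, SE 0.14, adjusted p = 0.226), and in the fit on genes over 3 times background it was called lower (−0.57, adjusted p = 0.0262). Usp9x, the deubiquitinase that stabilises MCL1, had a log2 fold change of 0.29 (adjusted p = 0.520).

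Among 19 tested PIM substrates and BAD partners edgeR called 2 higher and 0 lower, as did limma-voom, while DESeq2 called Cdkn1a higher as well. With edgeR 0.546% of all tested genes were called, and 2% of those over 3 times background. The list was chosen with earlier results of these data known, so its count of calls is not a result about the list. Eif4ebp1, the translational repressor 4E-BP1, rose 2.48-fold, with 13.3 and 10.4 CPM in NTC and, in Fli1 KO, 35.7, 24.3 and 29.6 CPM (log2 fold change 1.31, SE 0.20, edgeR adjusted p = 0.00105). Myc, whose protein PIM kinases stabilise, rose 1.65-fold, from 127 and 103 CPM to 200, 160 and 212 CPM (log2 fold change 0.73, SE 0.15, adjusted p = 0.0225). The call on Myc was lost without Fli1 KO 1 (0.70, adjusted p = 0.260), without Fli1 KO 3 (0.66, 0.370), without NTC 2 (0.59, 0.191) and with library size alone (0.59, 0.0607). The median of the list was 0.15.

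Of the 20 genes of the cytokine receptors and STAT5 that act above PIM and BCL2, 3 were called higher and 0 lower. All 3 encode feedback inhibitors. Among all tested genes 0.546% were called, and 2% of those over 3 times background. This list too was chosen with earlier results of these data known. Cish was at 104, 87.8 and 116 CPM in Fli1 KO and at 44.9 and 35.7 CPM in NTC, a 2.54-fold rise (log2 fold change 1.34, SE 0.16, edgeR adjusted p = 3.48e-05). Socs1 rose 2.01-fold (38.7 and 33.6 to 78.7, 64.4 and 75.4 CPM, adjusted p = 0.000713) and Socs3 1.97-fold (19.8 and 22.6 to 52.3, 32.3 and 40.5 CPM, adjusted p = 0.0112). Socs3 was not called without Fli1 KO 1 (0.79, adjusted p = 0.192) or Fli1 KO 3 (1.01, 0.0965). Socs2, also a feedback inhibitor gene of this list, was at 22.2, 20.9 and 24.4 CPM in Fli1 KO. In NTC it was at 21.3 and 21.1 CPM (log2 fold change 0.08, edgeR adjusted p = 0.937). The receptor and kinase genes themselves were not called. Of the 20 genes 15 had a positive log2 fold change. Negative were Il7r (−1.6), Il2ra (−0.28), Il18r1 (−0.2), Stat5a (−0.15) and Il15ra (−0.13). Il2rb, the shared chain for IL-2 and IL-15, was at 2150, 1740 and 2030 CPM in Fli1 KO and at 1500 and 1290 CPM in NTC (log2 fold change 0.50, SE 0.16, adjusted p = 0.251), Jak3 at 207, 201 and 213 CPM and at 175 and 127 CPM (0.46, adjusted p = 0.251) and Stat5b at 109, 92.2 and 118 CPM and at 99.9 and 92.1 CPM (0.15, adjusted p = 0.815).

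The genes nearest to Pim3 over the 5 libraries lay outside the family, by a measure into which the size of a change enters. Likeness was measured as the root mean squared difference of log2 CPM, centred on each gene's mean, over the 5 libraries. It was taken for 14312 protein-coding genes that averaged 5 CPM or more. Values were not scaled, so a gene with a large change lies far from genes with small ones. Pim3 had a log2 fold change of 1.92 and the other 9 genes −0.28 to 0.45, so its distance from them restates its call. The nearest to Pim3 were Junb, an AP-1 subunit gene (0.0878), Maff, a small MAF transcription factor gene (0.110), and Dusp5, the gene of a nuclear ERK phosphatase (0.112). Their log2 fold changes were 2.04, 1.74 and 1.96. Junb stood at 1040, 574 and 765 CPM in Fli1 KO and at 212 and 174 CPM in NTC, with the same order of the 5 libraries as Pim3. The nearest of the other 9 genes to Pim3 was Mcl1, at 0.736. Pim1, Pim2, Bcl2, Bcl2l1, Mcl1 and Bak1 each had a partner among them at 0.0919 to 0.118, and Pim1 and Mcl1 were each other's nearest (0.0943), as were Bcl2 and Bak1 (0.0919).

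**Figure D4:**
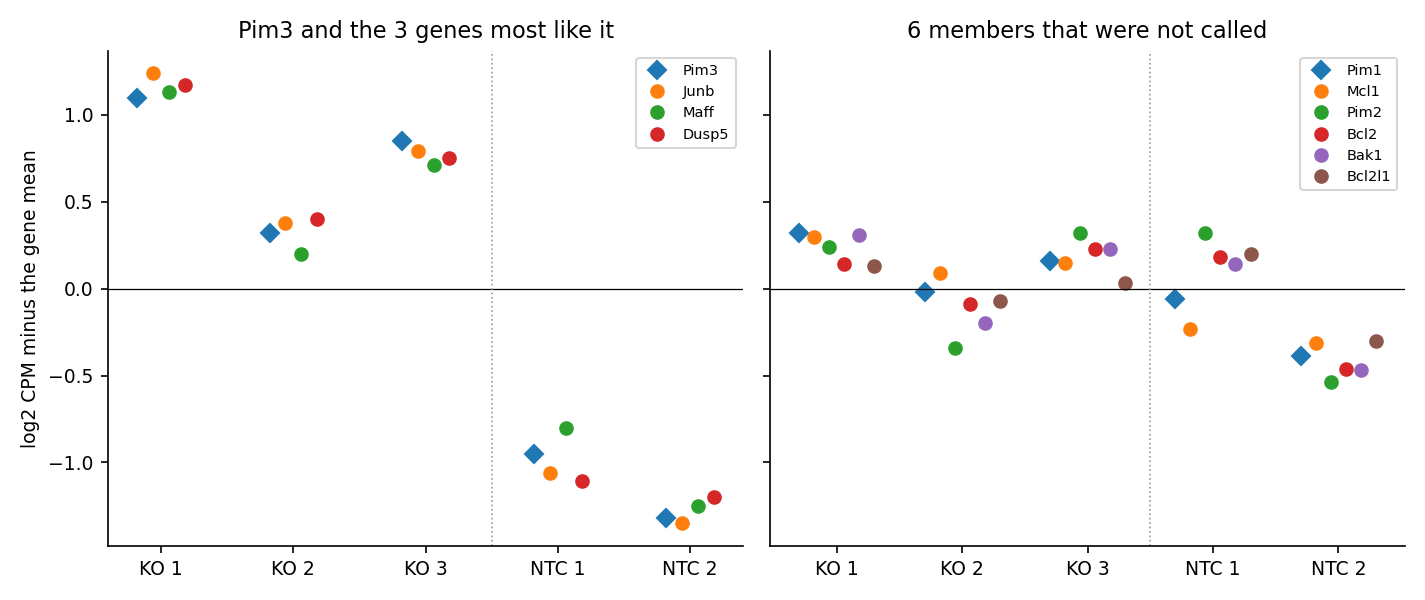
Log2 CPM minus the gene's mean over the 5 libraries (vertical axis) for each library (horizontal axis, Fli1 KO left of the dotted line). The left panel shows Pim3 and the 3 genes nearest to it, the right panel 6 genes of the family that were not called. Pim3 runs from −1.32 in NTC 2 to 1.10 in Fli1 KO 1, while Pim2, Bcl2, Bak1 and Bcl2l1 are lowest in Fli1 KO 2 and NTC 2.

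Pim2, Bcl2, Bcl2l1 and Bak1 shared a pattern across the groups: Fli1 KO 2 and NTC 2 both lay below all of the other 3 libraries. That was 4 of 10 genes, beside 34.3% of all tested genes over 3 times background and 13.1% of all tested genes, so the share is near that of other expressed genes. Birc5, a caspase inhibitor and mitotic gene, was at 38.0 and 33.4 CPM in these 2 libraries and at 62.5 to 70.9 CPM in the other 3, and Cdc20, a mitotic gene also in the MCL1 turnover list, at 35.7 and 28.8 CPM against 42.7 to 53.7 CPM. The receptor background was also highest in Fli1 KO 2 and NTC 2, at 1.69 and 1.78 CPM per kb against 1.38 to 1.52 in the other 3. So was the share of counts on 1 gene, Gm10800, at 16.4% and 19% against 10.3% to 15.4%. The part of mitotic genes or of these library differences in the values of Pim2, Bcl2, Bcl2l1 and Bak1 was not tested. Within each group, Fli1 KO 2 and NTC 2 were also the lowest for Pim1, Pim3 and Mcl1, although there Fli1 KO 2 stayed above NTC 1. Pim1, Pim3 and Mcl1 had all Fli1 KO libraries above both NTC libraries, which is 3 of 10 genes beside 11.9% of all tested genes and 26.3% of those over 3 times background.

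**Figure D5:**
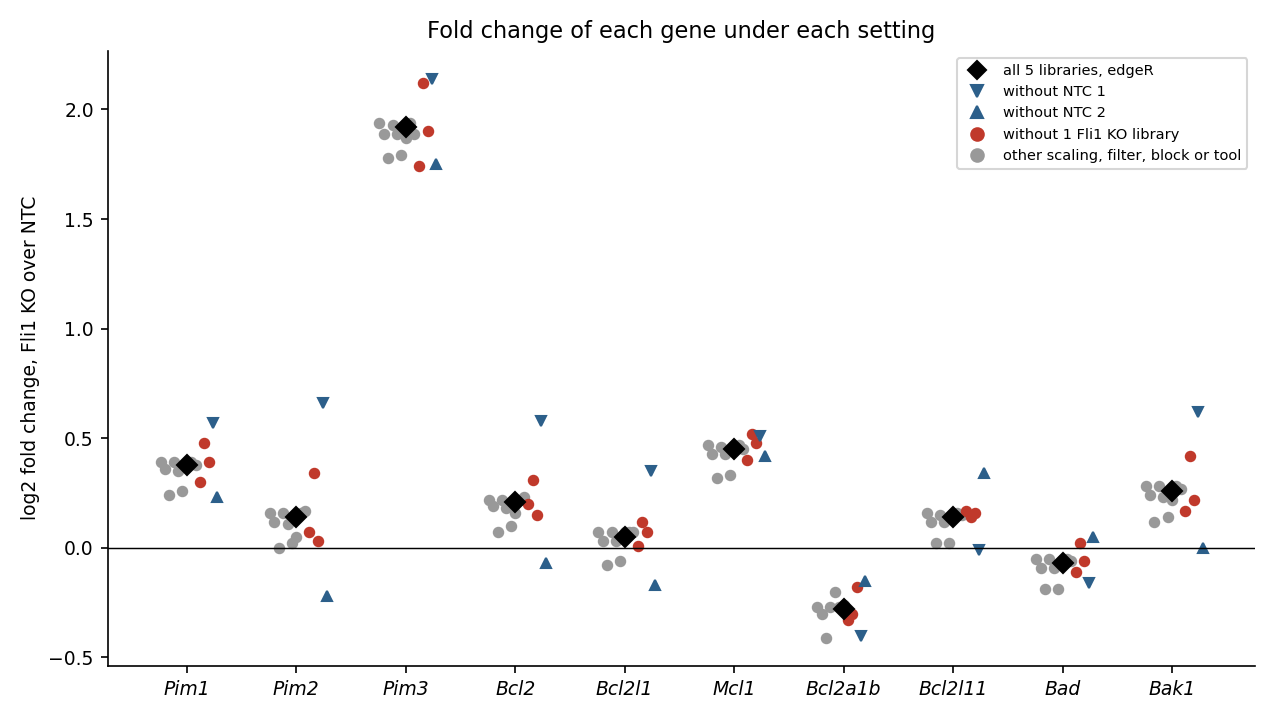
Log2 fold change of Fli1 KO over NTC (vertical axis) of each of the 10 genes with all 5 libraries (black diamond), with 1 library left out (blue triangles for NTC, red points for Fli1 KO) and with another scaling, filter, block or tool (grey points). Pim3 stays between 1.74 and 2.14, while Pim2 runs from −0.22 without NTC 2 to 0.66 without NTC 1.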

How the data were processed

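RNA-seq covered 3 Fli1 KO and 2 NTC libraries of splenic mouse NK cells. Per the labels' protocols, 10 ng of column-purified RNA went into each library, with enrichment by probes. The tools FastQC 0.12.0, Trimmomatic 0.39 and STAR 2.7.11 and the build mm10 are named in the submitters' processing notes. Not given in the sources used here are the counter, its strand setting and the annotation release. Values in the deposited table are raw whole-number counts per Ensembl gene ID, with 0 columns beyond the 5 libraries.

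Symbols came from the supplied gene name table (52073 of 56691 IDs matched), and coordinates and exon lengths from GENCODE release M21 on GRCm38 (mm10). Promoter windows are RefSeq's, and all 10 genes had one. Genes were kept with edgeR's filterByExpr (minimum count 10), scaled by TMM and tested by the robust quasi-likelihood method of edgeR 4.0.16 in R 4.3.3, with Benjamini-Hochberg adjustment over all 30580 tested genes. A call is an adjusted p under 0.05. Means and SDs are of CPM, and intervals of fold changes are at 95%. Background was the count density on receptor genes of smell and pheromone sensing (1455 autosomal Olfr and Vmnr genes, 5432.638 kb), taken to hold for all genes. The test was checked on simulated data with 200 of 29063 genes changed, where 3 of 132 calls were false.

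The 10 genes and the context lists were chosen with earlier results of these data known. Named are the 10 genes, Fli1, per list every called gene or, where none was called, the 1 with the smallest p, and the 3 genes most like each called gene. Further genes serve as examples. Alternatives were 3 other scalings, 2 other filters, genes over 3 times background only, a replicate block, DESeq2 1.42.0, limma-voom (limma 3.58.1) and each library left out.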

Additional observations from a re-analysis of the deposited data

How the results depend on the processing

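Pim3 kept its call under all 14 alternatives, with log2 fold changes of 1.74 to 2.14, both ends reached when 1 library was left out. Among the 10 genes the count called higher was 1 to 5 with 1 library left out, with 5 without NTC 1, and 3 with the replicate block: Pim3, Pim1 (0.38, edgeR adjusted p = 0.0201) and Mcl1 (0.46, adjusted p = 0.00124). Over the context lists the count called higher was 5, from 3 (without Fli1 KO 1 or Fli1 KO 3) to 13 (without NTC 1) with 1 library left out, and 12 with the block, Bnip3l among them (0.49, adjusted p = 0.00149). The count called lower was 0, from 0 to 1 with 1 library left out, 2 with the block, Traf2 among them (−0.42, adjusted p = 0.0443), and 2 among genes over 3 times background. Over all genes 140 were called higher and 27 lower. With library size alone they were 92 and 71, without a filter 239 and 56, with the block 728 and 193, and among genes over 3 times background 58 were lower. With 1 library left out they ran from 46 and 3 (without Fli1 KO 1) to 703 and 174 (without NTC 1). The replicate numbers are shared by 2 pairs of libraries, with correlations of deviations of 0.29 and 0.43. The labels do not say what a number marks, and the block leaves little to estimate the spread from. Under scaling by library size the median over tested genes was −0.144, against −0.018 with TMM, which left 6 of the 10 genes positive, where 8 were with TMM. Of 305 values of named genes under alternatives, 289 kept their call or lack of one, 6 lost a call, 10 gained one and 0 changed sign while called. With 3 against 2 libraries of about this depth, changes under 2-fold are often missed.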

Other observations

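Of the context lists, Bnip3 and Cdkn1a had large positive fold changes and wide intervals and were not called by edgeR. They were chosen after their values were seen. Bnip3, a mitochondrial BH3-like gene induced in hypoxia, was at 86.6, 52.1 and 62.1 CPM in Fli1 KO and at 38.5 and 13.4 CPM in NTC, a log2 fold change of 1.34 (SE 0.54, 95% interval −0.18 to 2.86, edgeR adjusted p = 0.600). Cdkn1a, the CDK inhibitor p21 and a PIM substrate, was at 51.9, 24.4 and 39.9 CPM in Fli1 KO and at 19.4 and 13.2 CPM in NTC, a log2 fold change of 1.23 (SE 0.33, 95% interval 0.47 to 1.99, adjusted p = 0.266), and DESeq2 called it higher. In both the groups did not overlap, and both were lowest in Fli1 KO 2 and NTC 2 within their groups. Il7r went the other way, with a wider interval (log2 fold change −1.6, SE 0.88, 95% interval −4.25 to 1.04, edgeR adjusted p = 0.724). Its groups overlapped, with 20.1 CPM in NTC 1 and 117 CPM in NTC 2. Among the receptors, Tnfrsf1a, the main TNF receptor gene, was at 44.2, 35.8 and 37.3 CPM in Fli1 KO and at 54.4 and 52.0 CPM in NTC (log2 fold change −0.45, adjusted p = 0.253).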
